A study of Mus musculus with 4 samples.

Results

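Of the 18193 genes measured on the arrays, 48 belong to the DNA repair families with the name stems Rad, Fanc, Xrcc, Brca, Msh, Mlh and Ercc. A gene was counted when a probe set was annotated to it alone and when its symbol began with such a stem followed by a digit, or by a letter for Fanc. The rule used names and no measured value. It took in 112 probe sets, and 35 of the 48 genes had more than 1 of them. Each of 4 mouse bone marrow populations was measured on 1 array, in a study of donor cells for cloning by nuclear transfer. Granulocytes, the mature end of the myeloid lineage, were sorted for high granularity and strong Gr-1. The haematopoietic progenitor cells (HPC) carried c-Kit but neither Sca-1 nor lineage antigens. The long-term haematopoietic stem cells (LT-HSC) carried c-Kit and Sca-1 without CD34, and the short-term stem cells (ST-HSC) carried all 3. These last 3 populations had been enriched with c-Kit beads, and the sources used here name no treatment, strain, genotype or age for any of the 4 groups. Sorted cells were packed into the emptied coats of mouse eggs, and RNA of a small number of cells per type was amplified through 2 linear rounds.

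The genes of these families repair different lesions. Mismatch repair (Msh and Mlh) corrects copying errors behind the replication fork, nucleotide excision repair (most Ercc genes) cuts out bulky lesions, and end joining rejoins broken DNA ends directly. Homologous recombination (Brca1, Brca2 and several Rad and Xrcc genes) copies the lost sequence from the sister chromatid, and the Fanconi anaemia proteins unhook crosslinks between the strands. Many of these genes are transcribed most strongly in cells that replicate their DNA. In bone marrow, loss of Fanconi anaemia genes in people is known to exhaust the blood-forming cells, and mature granulocytes no longer divide.

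The arrays share 1 scale, and 48.7% to 52.5% of the probe sets on each lay above 120.1, the floor under which a signal was taken as unmeasured. Since each cell type has a single array, nothing could be tested, and the small number of arrays limits how precise any value is. A gene's difference is its smallest log2 difference against the arrays it was set against, and 2-fold was the size at which it was counted. The SD of such differences between probe sets of 1 gene, the only measure of error, was 0.85 log2 units when granulocytes were compared, 0.57 when HPC were compared and 0.64 between LT-HSC and ST-HSC. Variation from sort to sort and between amplifications is not part of it. In these bulk samples a lower signal can come from fewer cells with the transcript or from less of it per cell, and these cannot be told apart. The ratio of 3′ to 5′ actin signal was 5.75 on the granulocyte array and 12.2 on the HPC, 16.1 on the ST-HSC and 14.6 on the LT-HSC array. For Gapdh the ratio was 12.4 on the granulocyte array and 17.8 on the HPC, 12.4 on the ST-HSC and 14.9 on the LT-HSC array, so granulocytes stood apart in the actin ratio and not in this one. The part of RNA quality in the results was not tested.

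The granulocyte and stem cell markers followed the labels, with an exception on the LT-HSC array. The summed signal of 8 stem and progenitor cell markers was 988 in granulocytes, against 21107 in HPC, 38060 in ST-HSC and 43386 in LT-HSC. The summed signal of 9 granulocyte markers was 380487 on the granulocyte array, 580 on the HPC array and 573 on the ST-HSC array, but 22678 on the LT-HSC array, where 6 of the 9 lay above the floor. Of 6 B-lineage markers, all 6 lay above the floor on the LT-HSC array (summed signal 14005), 5 on the HPC array (6722), 3 on the granulocyte array (1454) and 1 on the ST-HSC array (525). The HPC array therefore shares the B-lineage signal, but not the granulocyte signal, of the LT-HSC array. Counts of repair genes in granulocytes and in HPC are also given without the LT-HSC array. The summed signal of 5 cumulus cell markers was 8425 on the granulocyte array, against 858 on the HPC array and less on both stem cell arrays. Most of the granulocyte sum came from Inhba (6565.9), followed by Ptgs2 (1055.5), and Ptx3 was under the floor there (55.7). For 5 monocyte and macrophage markers, some of which granulocytes also transcribe, the sum was 55073 in granulocytes, against 16613 in HPC, 1805 in ST-HSC and 1064 in LT-HSC. The sums of 3 erythroid markers (95 to 235) and 6 oocyte markers (331 to 837) were low on all arrays, with Zp3, Bmp15 and Nlrp5 of the oocyte list under the floor throughout. The sum of 5 T and NK cell markers ran from 611 to 2394. Most of it in HPC and ST-HSC came from Nkg7 (1750.5 and 1153.2). The part of these other cell types in the results was not tested.

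Granulocytes had less transcript of a subset of the repair genes. Of the 48, 13 were at least 2-fold lower in granulocytes than on every other array and 1, Fancc, was at least 2-fold higher. The same held for 12.7% and 8.9% of all 18193 genes, so the share that was lower (27.1%) lay above the background and the share that was higher (2.08%) below it. Among genes whose highest signal reached 240.2, without which no 2-fold difference could be measured, the lower share was 30.2% of 43 repair genes and 20.8% of 11145 genes. At 4-fold 4 genes were lower and none was higher, beside 5.34% and 2.86% of all genes. The median difference of the 48 from the mean of the other arrays was -0.59 log2 units, against 0 for all genes, and among genes that reached 240.2 the medians were -0.71 and -0.24. Of the 13, 6 exceeded 2 times the SD between probe sets (1.70 log2 units), namely Xrcc6, Ercc6l, Xrcc1, Msh6, Brca1 and Rad50. Only 3 of the 13 (Ercc4, Rad18 and Rad23b) had another probe set that reached 240.2, and that of Rad18 ran the other way. Under all 8 alternative scalings, floors and choices of probe set, Xrcc6 and Msh6 stayed at least 2-fold lower, and the other 12 of the 14 genes fell under 2-fold in at least 1. Without the LT-HSC array 15 genes were lower (Fancl and Rad51ap1 were added) and 2 were higher (Fancc and Rad51d), beside 14.6% and 10.4% of all genes. At 4-fold 9 genes were then lower, beside 1171 of 18193 genes, and none was higher.

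**Figure D1:**
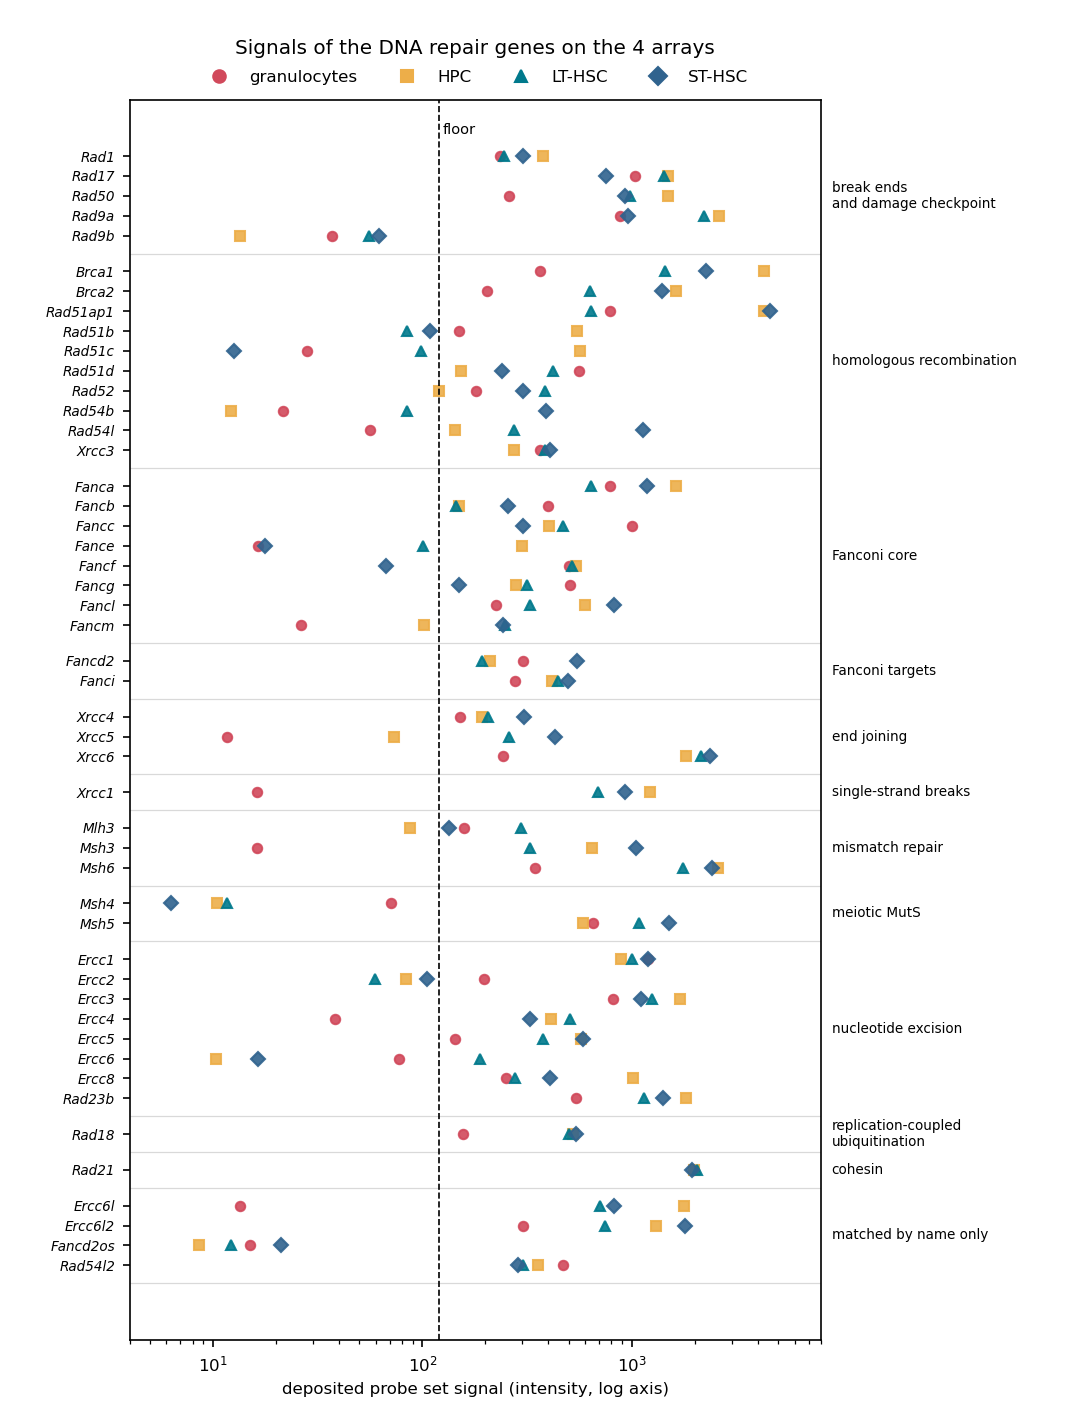
Signal of the 48 repair genes on each of the 4 arrays (log axis), grouped by role, with each point the probe set that represents the gene and the line at the floor of 120.1. The granulocyte points of Xrcc6, Xrcc1, Msh6 and Brca1 lie to the low side of the other 3, those of Fancc and Fancg lie to the high side, and the points of Rad21 fall together.

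In end joining, the gene for Ku70 was lower in granulocytes, while that of its partner Ku80 had no measurable signal to compare with HPC. Xrcc6, which encodes the Ku70 part of the ring that grips a broken DNA end, had a signal of 243 in granulocytes, against 1825 in HPC, 2376 in ST-HSC and 2149 in LT-HSC. This was 7.52-fold lower than in the nearest array, the largest measured difference among the 48 genes in granulocytes. Xrcc5, which encodes its partner Ku80, was under the floor in granulocytes (11.7) and also in HPC (73.6), against 260.0 in LT-HSC and 432 in ST-HSC. Xrcc4, which holds the ligase of this pathway, had 152 in granulocytes, against 194 in HPC, 306 in ST-HSC and 206 in LT-HSC, a difference smaller than the spread between probe sets.

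Xrcc1, the scaffold on which single-strand breaks are sealed, was not detected above the floor in granulocytes. Its signal was 16.2 there, against 1219 in HPC, 924 in ST-HSC and 694 in LT-HSC, at least 5.78-fold lower.

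Both mismatch recognition subunits measured here were lower in granulocytes. Msh6, which takes part in reading single mispaired bases, had 346 in granulocytes, against 2593 in HPC, 2414 in ST-HSC and 1754 in LT-HSC (5.06-fold lower). Msh3, which reads small loops instead, had 16.2 in granulocytes, against 647 in HPC, 1054 in ST-HSC and 326.5 in LT-HSC, at least 2.72-fold lower. For Mlh3, a subunit of the complex that acts after recognition, granulocytes (159) lay inside the range of the other arrays (87.0 in HPC, 134 in ST-HSC and 295 in LT-HSC). Of the meiotic pair, Msh4 was under the floor on all arrays. Msh5 had 656 in granulocytes, against 584 in HPC, 1501.5 in ST-HSC and 1079.6 in LT-HSC.

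In homologous recombination 2 of 10 genes were at least 2-fold lower in granulocytes, and both are named for breast cancer susceptibility. All 10 reached 240.2, so this share of 20.0% was near the background of 20.8%. Without the LT-HSC array 3 of the 10 were lower and 1 was higher. Brca1, which promotes the resection of breaks, had 364 in granulocytes, against 4302 in HPC, 2265 in ST-HSC and 1437 in LT-HSC (3.95-fold lower). Brca2, which acts after resection to start strand exchange, had 203 in granulocytes, against 1629.6 in HPC, 1400.5 in ST-HSC and 633 in LT-HSC (3.12-fold lower). Granulocytes lay below the other 3 arrays in both cases. Rad51d, which also acts in strand exchange, had 558.5 in granulocytes, against 153 in HPC, 241 in ST-HSC and 419 in LT-HSC (1.33-fold higher), but another of its probe sets ran the other way with 159 in granulocytes, against 430.0 in HPC, 111.5 in ST-HSC and 269.5 in LT-HSC. Xrcc3, of the same gene family, had 366 in granulocytes, against 273 in HPC, 407 in ST-HSC and 387.5 in LT-HSC, and its other probe set gave 34.8 in granulocytes, against 83.9 in HPC, 348 in ST-HSC and 317 in LT-HSC. The sign for Rad51d and Xrcc3 therefore rests on which probe set is read. Rad51b had 150.2 in granulocytes, between 545.5 in HPC and the unmeasured signals of both stem cell arrays. Rad51c, Rad54b and Rad54l were under the floor in granulocytes (28.2, 21.7 and 56.0), and of the 2 other probe sets of Rad54l that reached 240.2, 1 ran the other way. Rad52 had 180.4 in granulocytes, against 121 in HPC, 304 in ST-HSC and 385 in LT-HSC.

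Rad50, part of the complex that first binds a break, had 260.0 in granulocytes, against 1491 in HPC, 924 in ST-HSC and 986 in LT-HSC (3.55-fold lower). The other checkpoint genes differed less. Rad1, a subunit of the clamp that signals damage, had 236 in granulocytes, against 377 in HPC, 301 in ST-HSC and 246 in LT-HSC. Its clamp partner Rad9a had 883 in granulocytes, against 2621 in HPC, 964 in ST-HSC and 2213 in LT-HSC, and the clamp loader Rad17 had 1031, against 1484 in HPC, 753 in ST-HSC and 1434 in LT-HSC. Rad9b was under the floor on all 4 arrays.

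None of the 10 genes of the Fanconi core complex and its targets was 2-fold lower in granulocytes than on every other array. The lower share was 20.8% among all genes that, like these 10, reached 240.2. Genes of this pathway with other names, such as Brca2, are counted under other roles. Without the LT-HSC array 1 of the 10 was lower. Their median difference was -0.17 log2 units. Fancc, a subunit of the core complex, had 1009 in granulocytes, against 404 in HPC, 302.5 in ST-HSC and 470.5 in LT-HSC (2.14-fold higher). Fancg, another core subunit, had 509 in granulocytes, against 279.5 in HPC, 150.1 in ST-HSC and 317 in LT-HSC (1.60-fold higher). Fancb, also of the core complex and X-linked, had 400.4 in granulocytes, against 150.5 in HPC, 257 in ST-HSC and 144 in LT-HSC (1.56-fold higher). In all 3 cases the granulocyte signal of the probe set used was the highest of the 4. The differences of Fancg (0.68 log2 units) and Fancb (0.64) were smaller than the spread between probe sets, and that of Fancc (1.1) was under 2 times it. Another probe set of Fancc was highest in ST-HSC (267.0), with 235.0 in granulocytes, 105.3 in HPC and 138.2 in LT-HSC. Fanca had 785 in granulocytes, against 1621 in HPC, 1182 in ST-HSC and 641 in LT-HSC, and was in the middle. Fancf, an adaptor of the core, had 500.2 in granulocytes, against 540.0 in HPC, 67.1 in ST-HSC and 521 in LT-HSC. Fancl, the ubiquitin ligase of the complex, had 224 in granulocytes, against 600.4 in HPC, 819.5 in ST-HSC and 326 in LT-HSC. It was the lowest in granulocytes, and it passed 2-fold without the LT-HSC array or against the mean of the other arrays. Fance and Fancm were under the floor in granulocytes (16.5 and 26.4) and on at least 1 other array. Fanci, which the core complex marks with ubiquitin together with Fancd2, had 277 in granulocytes, against 415 in HPC, 497 in ST-HSC and 447 in LT-HSC, a difference of -0.58 log2 units that is smaller than the spread between probe sets. Fancd2 itself had 301 in granulocytes, against 209.7 in HPC, 549 in ST-HSC and 194 in LT-HSC.

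In nucleotide excision repair 3 of 8 genes were at least 2-fold lower in granulocytes, and 2 of these encode the nucleases that cut on either side of a lesion. These were 3 of the 6 that reached 240.2, beside 20.8% of all such genes, and 3 were lower without the LT-HSC array too. Ercc4, the catalytic subunit of the 5′ nuclease, had 38.4 in granulocytes, against 409.5 in HPC, 327 in ST-HSC and 507 in LT-HSC (at least 2.72-fold lower). Its other probe set that reached 240.2 gave 164.7 in granulocytes, against 470.4 in HPC, 450.4 in LT-HSC and a nearly equal 171.8 in ST-HSC. Ercc5, the 3′ nuclease, had 143 in granulocytes, against 570.2 in HPC, 582 in ST-HSC and 376 in LT-HSC (2.63-fold lower). Rad23b, a partner of the damage sensor Xpc, had 542 in granulocytes, against 1809 in HPC, 1413 in ST-HSC and 1143 in LT-HSC (2.11-fold lower). The mean difference of its 3 other probe sets had the same sign. In 1 of these that sign came from ST-HSC (382.1) alone, with granulocytes (105.5), HPC (68.8) and LT-HSC (3.1) under the floor. In another, granulocytes (34.9) and LT-HSC (115.0) were both under the floor. Ercc1, the partner of Ercc4, did not follow it, with 1194 in granulocytes, against 890.3 in HPC, 1192 in ST-HSC and 998.5 in LT-HSC, and a second probe set gave 439 in granulocytes, against 404 in HPC, 745 in ST-HSC and 595 in LT-HSC. The genes that open the DNA were not lowered by 2-fold either. Ercc3, a helicase of the general transcription factor TFIIH that opens DNA around the lesion, had 812 in granulocytes, against 1701 in HPC, 1110.4 in ST-HSC and 1251 in LT-HSC. Its fellow helicase Ercc2 had 196.5 in granulocytes and was under the floor elsewhere (83.4 in HPC, 105 in ST-HSC and 59.2 in LT-HSC), at least 1.64-fold higher.

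The remaining genes act beside the classic pathways. Rad18, which ubiquitinates the sliding clamp at stalled forks, had 157 in granulocytes, against 522 in HPC, 541 in ST-HSC and 503 in LT-HSC (3.21-fold lower), but the only other of its probe sets that reached 240.2 gave 429 in granulocytes, against 237 in HPC, 259.8 in ST-HSC and 688 in LT-HSC. Rad21, a subunit of the cohesin ring that holds sister chromatids together, lay close to 1 level, with 1969.9 in granulocytes, against 1975 in HPC, 1949 in ST-HSC and 2048 in LT-HSC. Ercc6l, a helicase of mitotic chromosomes that shares a name stem with the excision genes, had 13.4 in granulocytes, against 1779.6 in HPC, 825 in ST-HSC and 704 in LT-HSC (at least 5.86-fold lower). Its namesake Ercc6l2 had 301.5 in granulocytes, against 1303 in HPC, 1801 in ST-HSC and 746 in LT-HSC (2.47-fold lower). Rad54l2 had 472 in granulocytes, against 356 in HPC, 287 in ST-HSC and 303 in LT-HSC, and another probe set gave 19.6, against 456 in HPC, 391 in ST-HSC and 627 in LT-HSC. The 4 genes given no classic repair role here were Ercc6l, Ercc6l2, Rad54l2 and Fancd2os. Leaving them out, 11 of 44 were lower and 1 was higher, against 13 lower and 2 higher without the LT-HSC array. Among those that reached 240.2 the lower share was 27.5% of 40, beside 20.8% of all genes.

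**Figure D2:**
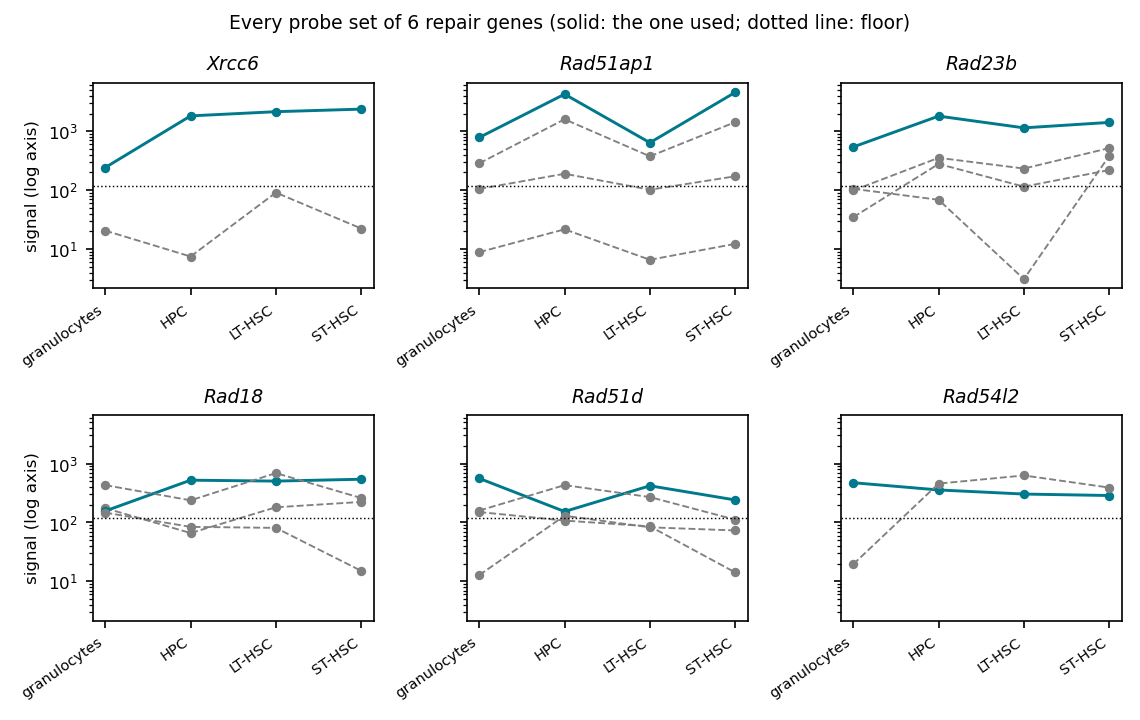
Signal of every probe set of Xrcc6, Rad51ap1, Rad23b, Rad18, Rad51d and Rad54l2 on the granulocyte, HPC, LT-HSC and ST-HSC arrays (log axis). The solid line is the probe set that represents the gene and the dotted line the floor of 120.1. All 4 probe sets of Rad23b lie lower in granulocytes than in ST-HSC, while lines of Rad18, Rad51d and Rad54l2 cross.

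Repair genes with other names were examined beside the 48. Of 71 measured, 31 (43.7%) were at least 2-fold lower and 2 (2.82%) were higher, beside 12.7% and 8.9% of all genes. The median difference of the 71 was -1.16 log2 units. Without the LT-HSC array 37 were lower and 4 were higher, beside 14.6% and 10.4% of all genes. Ung, which removes uracil from DNA, had 138 in granulocytes, against 3122 in HPC, 3633 in ST-HSC and 3653 in LT-HSC (22.7-fold lower). Rpa2, a subunit of the protein that coats single-stranded DNA, had 178 in granulocytes, against 5150 in HPC, 3635 in ST-HSC and 2452.5 in LT-HSC (13.7-fold lower). Hells, a chromatin remodeller, had 6.5 in granulocytes, against 2210 in HPC, 2011 in ST-HSC and 1666 in LT-HSC, at least 13.9-fold lower. The 2 that were higher against all 3 arrays both belong to end joining. Lig4, its ligase, had 336 in granulocytes, against 135 in HPC and signals under the floor in both stem cell populations (2.49-fold higher). Nhej1, which aligns the ends for that ligase, had 395 in granulocytes, against 181 in HPC, 141 in ST-HSC and a signal under the floor in LT-HSC (2.18-fold higher). The differences of Lig4 (1.32 log2 units) and Nhej1 (1.12) were under 2 times the SD between probe sets (1.70). Of the 6 end joining genes measured in this list, 1 was at least 2-fold lower, namely Prkdc (4.72-fold). These lists were drawn up with earlier results on these arrays known, so their counts are descriptions.

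A larger share of the replication genes and of the mitosis genes than of the 48 repair genes was at least 2-fold lower in granulocytes. Of 25 replication genes, 20 were at least 2-fold lower in granulocytes and none was higher, with a median of -3.27 log2 units. Of 19 mitosis genes, 9 were lower and none was higher, with a median of -1.31. Without the LT-HSC array 22 of the replication genes and 12 of the mitosis genes were lower. Over all genes the lower share was 12.7%, and 14.6% without the LT-HSC array. The part of cell division in the repair gene differences was not tested.

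**Figure D3:**
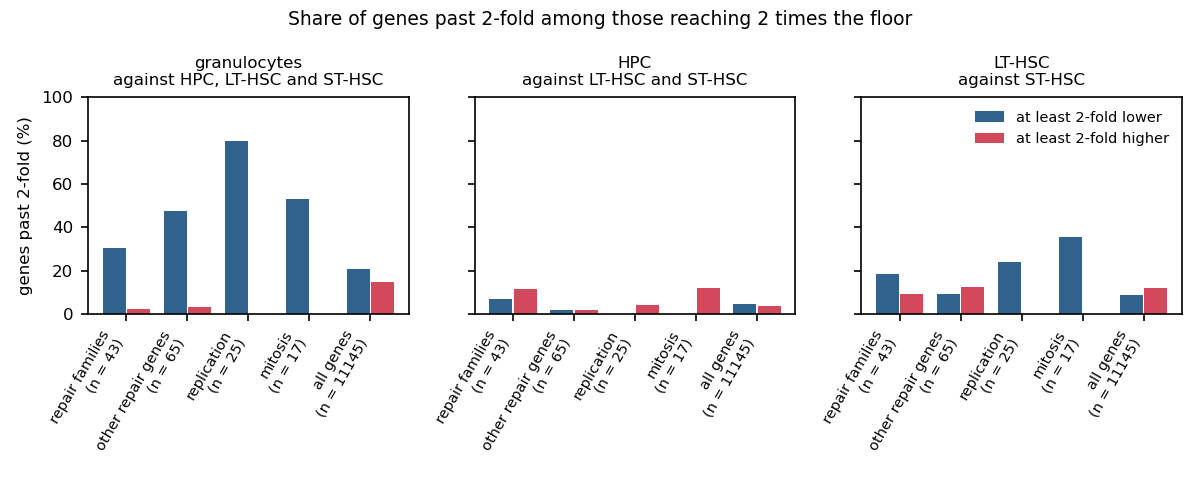
Percent of genes at least 2-fold lower and at least 2-fold higher, in 3 panels for granulocytes against the other 3 arrays, HPC against both stem cell arrays, then LT-HSC against ST-HSC. Bars are given for the repair families (43 genes), other repair genes (65), replication genes (25), mitosis genes (17) and all genes (11145), counting only genes whose highest signal reached 240.2. In granulocytes the lower share was 30.2% of the repair families, 47.7% of the other repair genes and 20.8% of all genes.

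Because genes of replication and repair often carry binding letters of the E2F factors near their starts, the promoters were searched for TTTGGCGC, TTTCGCGC and TTCCCGC on both strands. The window ran from 250 bases before to 50 bases after the start in RefSeq for GRCm38.p6, and 39 of the 48 genes had an entry. Of the 39, 6 (15.4%) had more than 1 window, as had 18.4% of the genes on the arrays, and a gene was counted when any window held a word. At least 1 of the 3 words was found for 14 of the 39 genes (35.9%), against 9.22% of 14368 genes on the arrays and 6.1% of all 27025 genes. Counted by window it was 15 of 45 (33.3%), against 7.81% of 18009 windows of genes on the arrays. The median GC content was 58.7% both for the 39 genes and for the genes on the arrays. CCAAT, on either strand, was found for 59.0% of the 39 genes, against 42.0% of the genes on the arrays. TTTGAA, the last word searched, went the other way, with 7.69% of the 39 genes, against 15.7% of the genes on the arrays. Among repair genes at least 2-fold lower in granulocytes, 5 of 11 held an E2F word, and 9 of the other 28 did. A match describes letters in a window and does not show a bound site. The following stretches of 30 bases come from 4 of those 5 genes and from Rad51ap1, which was lower in LT-HSC, and are written 5′ to 3′ along the gene with the E2F word, on either strand, in capitals. The site in Xrcc6 is at chr15:82016312-82016341 (plus strand), Msh6 at chr17:87975055-87975084 (plus), Brca2 at chr5:150522442-150522471 (plus), Ercc5 at chr1:44147664-44147693 (plus) and Rad51ap1 at chr6:126939557-126939586 (minus).
Xrcc6: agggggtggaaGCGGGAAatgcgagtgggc
Msh6: tcctcccgactTTCCCGCcagcggcggccg
Brca2: tttaggccacaGCGGGAAacagacacacac
Ercc5: caagtgtcaacGCGGGAAtcccaaccctcg
Rad51ap1: tctggttttcgGCGGGAAttgaaaccgcca

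These 5 stretches all held TTCCCGC, read as GCGGGAA where it lies on the opposite strand. Msh3, the remaining gene lower in granulocytes with an E2F word, is not shown and held TTTGGCGC and TTTCGCGC instead. The window of Xrcc6 overlaps the record of Desi1. With the start of the gene as position 1, the words begin at -46 in Xrcc6, 17 in Msh6, -168 in Brca2, -69 in Ercc5 and 13 in Rad51ap1. TTCCCGC also stood in 2 of the genes whose signal was highest in granulocytes, which are shown to set beside them. These are Fancg at chr4:43010334-43010363 (minus) and Fancb at chrX:164980409-164980438 (plus).
Fancg: ttcttttcagtTTCCCGCggaaccgtctct
Fancb: ccggggtagagGCGGGAAtaagtgctctgc

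Fewer repair genes passed 2-fold between progenitors and stem cells, and these included recombination genes in both directions. In HPC, 5 of the 48 genes were at least 2-fold higher than in both stem cell populations (10.4%, beside 2.12% of all genes) and 3 were at least 2-fold lower (6.25%, beside 2.69%). Among genes that reached 240.2 these shares were 11.6% and 6.98%, beside 3.45% and 4.4%. At 4-fold 2 genes were higher (Rad51b and Rad51c) and none was lower, beside 0.275% and 0.346% of all genes. The median difference was 0.12 log2 units, against 0 for all genes, and 0.22 against 0.03 among genes that reached 240.2. With the arrays scaled to a common 75th percentile the counts were 6 higher and 1 lower, beside 549 and 386 of all genes. Against ST-HSC alone, leaving out the LT-HSC array, 7 genes were higher in HPC and 7 were lower, beside 6.47% and 6.21% of all genes. The genes then added were Fancf and Rad9a on the higher side and Fancd2, Msh5, Rad54b and Rad54l on the lower side. At 4-fold 3 genes were then higher and 1 was lower, beside 204 and 196 of all 18193 genes.

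The genes higher in HPC included Rad51b and Rad51c, whose proteins act in 1 complex. Rad51c had 567 in HPC, against 98.6 in LT-HSC and 12.6 in ST-HSC (at least 4.72-fold higher), and Rad51b had 545.5 in HPC, against 84.2 in LT-HSC and 109 in ST-HSC (at least 4.54-fold higher). Both were under the floor in each stem cell population, and granulocytes had 28.2 for Rad51c. Fance, the core subunit that contacts Fancd2, had 299.6 in HPC, against 101 in LT-HSC and 17.7 in ST-HSC, at least 2.49-fold higher, and 16.5 in granulocytes. Ercc8, which acts when a lesion stalls transcription, had 1015.5 in HPC, against 278.5 in LT-HSC and 405 in ST-HSC (2.51-fold higher), and 252 in granulocytes. Ercc6l, the mitotic helicase, had 1779.6 in HPC, against 704 in LT-HSC and 825 in ST-HSC (2.16-fold higher). Brca1 was just short of the threshold, with 4302 in HPC, against 1437 in LT-HSC and 2265 in ST-HSC (1.90-fold higher).

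Of the 3 genes lower in HPC, Rad52, which anneals single strands, exceeded 2 times the SD between probe sets (1.13 log2 units). It had 121 in HPC, against 385 in LT-HSC and 304 in ST-HSC (2.52-fold lower). Its second probe set was under the floor in both HPC and ST-HSC and does not bear on this. Xrcc5, the Ku80 gene, was under the floor in HPC (73.6), against 260.0 in LT-HSC and 432 in ST-HSC, at least 2.16-fold lower. Fancm, the translocase that anchors the core complex to DNA, had 102 in HPC, against 247 in LT-HSC and 243 in ST-HSC, at least 2.02-fold lower, but the sign turned with another of its probe sets (0.78 log2 units). Probe sets also disagreed on the sign in HPC for Fancc, Rad23b, Rad51d and Rad54l2, none of which was counted. Of 71 other repair genes, 1 was higher in HPC and 1 was lower (1.41% each), under the 2.12% and 2.69% of all genes. Without the LT-HSC array 4 were higher and 4 were lower, beside 6.47% and 6.21% of all genes. With that array kept, the higher gene was Chek1, the kinase that restrains replication after damage. It had 5416.5 in HPC, against 1918 in LT-HSC and 2540 in ST-HSC. The lower gene was Ddb2, which finds ultraviolet lesions, with 542 in HPC, against 2285.5 in LT-HSC and 2033 in ST-HSC. Of the replication genes 1 of 25 (4.0%), and of the mitosis genes 2 of 19 (10.5%), were higher in HPC, beside 2.12% of all genes. None was lower. Without the LT-HSC array 2 replication genes were lower in HPC, beside 6.21% of all genes, and the higher counts were the same.

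In LT-HSC 8 of the 48 repair genes were at least 2-fold lower than in ST-HSC, and 4 were at least 2-fold higher. The lower share (16.7%) lay above the background of 5.41% of all genes and the higher share (8.33%) was near the background of 7.28%. Among genes that reached 240.2 these shares were 18.6% and 9.3%, beside 8.84% and 11.9%. At 4-fold 2 genes were lower (Rad51ap1 and Rad54l) and 1 was higher (Fancf), beside 0.693% and 1.29% of all genes. The median difference was -0.12 log2 units, against 0 for all genes, and -0.23 against 0 among genes that reached 240.2. Of the 12 genes, 7 exceeded 2 times the SD between probe sets (1.27 log2 units), 6 of them lower and 1 higher. This comparison rests on the LT-HSC array that carries the granulocyte and B-lineage markers, and there is no second array of either population.

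The recombination genes made up 4 of the 8 that were lower in LT-HSC, and none of the 10 in that role was 2-fold higher. The 4 were 40.0% of the role, beside 8.84% of all genes that reached 240.2. Rad51ap1, which stimulates strand pairing, had 640.3 in LT-HSC, against 4578 in ST-HSC (7.15-fold lower). A second probe set gave 376 in LT-HSC, against 1428 in ST-HSC, and by the first probe set granulocytes (786) were near LT-HSC and HPC (4261) near ST-HSC. Rad54l, a motor protein that remodels the pairing intermediate, had 273 in LT-HSC, against 1136 in ST-HSC (4.17-fold lower), with 143 in HPC. Its relative Rad54b was under the floor in LT-HSC (84.5), against 390.3 in ST-HSC, at least 3.25-fold lower, and also in HPC (12.2). Brca2 had 633 in LT-HSC, against 1400.5 in ST-HSC (2.21-fold lower). The same gene was also among those lower in granulocytes, and these comparisons share the LT-HSC and ST-HSC arrays.

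The other 4 genes lower in LT-HSC were a pair of Fanconi genes, Msh3 and Ercc6l2. Fancd2, the target of the Fanconi core complex, had 194 in LT-HSC, against 549 in ST-HSC (2.84-fold lower). Fancl, the ligase that modifies it, had 326 in LT-HSC, against 819.5 in ST-HSC (2.51-fold lower). Msh3 had 326.5 in LT-HSC, against 1054 in ST-HSC (3.23-fold lower), and Ercc6l2 had 746, against 1801 (2.42-fold lower). So the ligase and its substrate were both lower in LT-HSC on these arrays, while Fanci, the partner of Fancd2, had 447 in LT-HSC, against 497 in ST-HSC.

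Among the 4 genes higher in LT-HSC, 2 belong to the Fanconi core. Fancf had 521 in LT-HSC and was under the floor in ST-HSC (67.1), at least 4.34-fold higher. Fancg had 317 in LT-HSC, against 150.1 in ST-HSC (2.11-fold higher). Rad9a of the checkpoint clamp had 2213 in LT-HSC, against 964 in ST-HSC (2.30-fold higher), with its loader Rad17 at 1434 in LT-HSC, against 753 in ST-HSC (1.90-fold higher). Mlh3 had 295 in LT-HSC, against 134 in ST-HSC (2.20-fold higher). Probe sets disagreed on the sign for Fancc, Msh5 and Rad18, none of which was counted. Rad51ap1, Rad54l and Rad9a stayed past 2-fold under all 8 alternatives, and the other 9 of the 12 genes did not.

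**Figure D4:**
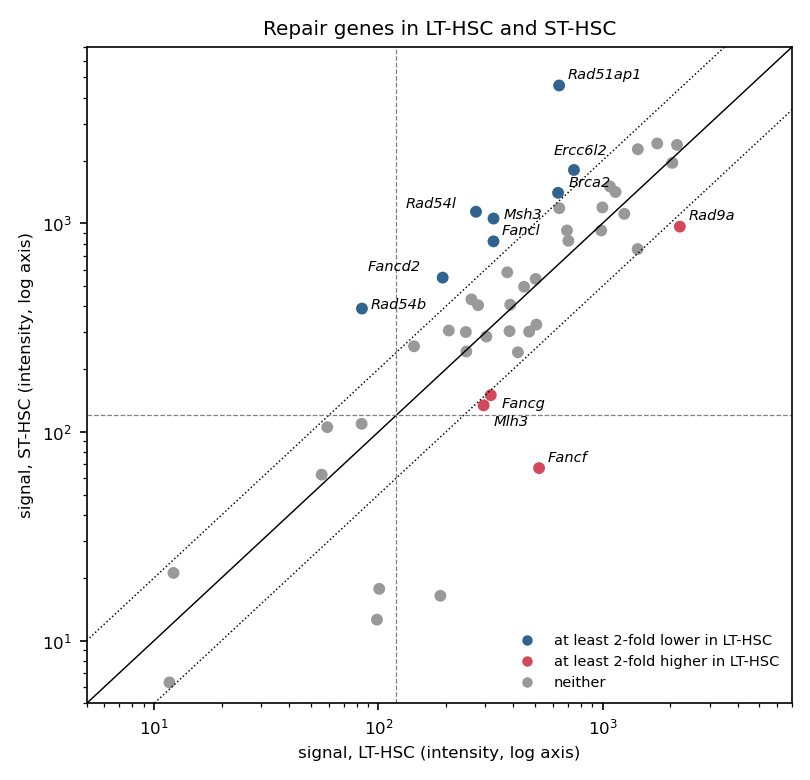
Signal of the 48 repair genes in LT-HSC (horizontal log axis) against ST-HSC (vertical log axis), with dotted lines at 2-fold and thin dashed lines at the floor. The named points are the genes counted, 8 on the ST-HSC side, with Rad51ap1 the highest, and 4 on the LT-HSC side. Grey points beyond the dotted lines lie there through signals under the floor.

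A minority of replication and mitosis genes passed 2-fold between LT-HSC and ST-HSC. Of 25 replication genes 6, and of 19 mitosis genes 6, were at least 2-fold lower and none was higher, beside 5.41% of all genes that were lower. Their medians of -0.27 and -0.59 log2 units were smaller than the SD between probe sets of 1 gene, which does not measure the error of a median. The 71 other repair genes split into 6 lower (8.45%) and 8 higher (11.3%) in LT-HSC, beside 5.41% and 7.28% of all genes, with a median of -0.04. The part of cell division in these differences was not tested.

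Of the remaining members, 5 (Ercc2, Ercc6, Fancd2os, Msh4 and Rad9b) never reached 240.2 and could not show a 2-fold difference. Ercc6, which works with Ercc8, had 189 in LT-HSC and was under the floor in granulocytes (77.7), HPC (10.4) and ST-HSC (16.4). Fancd2os, which lies on the strand opposite Fancd2 and is no repair gene by function, had 8.6 to 21.1 on the 4 arrays. Xrcc2 was not analysed here.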

How the data were processed

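RNA of 4 cell types was measured on 1 single-colour Affymetrix array each. The authors deposited 1 linear intensity per probe set, and no source used here says how the probes were summarised. All arrays had a 2% trimmed mean of 500.0 and were not rescaled. The 64 control probe sets among 45101 were dropped. The platform annotation, which can be old, gave 1 symbol for 34945 probe sets, several for 932 and none for 9160. A pair of probe sets naming Rad54b together with another gene was left out. Values under 120.1, the median of all deposited values, were raised to it before log2, and a difference with 1 side there is a bound ("at least"). Each gene is represented by its brightest probe set (highest mean log2 over the arrays). Probe sets disagree where another that reaches 240.2, 2 times the floor, has a mean difference of the opposite sign.

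Differences, counts and medians were computed for 3 comparisons, with no test or p-value. The companion lists of other repair, replication and mitosis genes and the marker lists are described by counts and medians. Of the 79 other repair genes listed, 71 had a probe set of their own. All 48 members are accounted for. Full values are given for those at least 4-fold apart in granulocytes or 2-fold in the other comparisons, those highest in granulocytes, the nearest to no difference in a role and those whose probe sets disagree. Brca1, Brca2 and others under these sizes were also given as examples. The members and lists were chosen with earlier results of these data known. Promoter sequences are RefSeq's for GRCm38.p6. The alternatives were other scalings, floors, probe set rules and thresholds, and leaving out the LT-HSC array, added after seeing the data. The procedure was tested on simulated data. The tools were pandas 2.3.3, numpy 2.4.6, matplotlib 3.10.9 and scipy 1.17.1 under Python 3.11.15.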

Additional observations from a re-analysis of the deposited data

How the results depend on the processing

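Under the alternatives run, the median difference of the 48 repair genes ran from -1.02 to -0.11 log2 units in granulocytes, where the main value was -0.59. It ran from 0 to 0.27 in HPC and from -0.24 to 0 in LT-HSC against ST-HSC. The counts also depended on the choices. Of the 14 genes counted in granulocytes, Msh6 (-2.92 to -2.0) and Xrcc6 (-3.54 to -1.45) stayed past 2-fold under all 8 settings tried per gene, as did Rad51ap1 (-3.0 to -1.22), Rad54l (-2.17 to -1.39) and Rad9a (1.08 to 1.39) in LT-HSC against ST-HSC, and none in HPC. With the floor at the 75th percentile the counts were 5 lower in granulocytes, 0 lower and 2 higher in HPC, and 5 lower and 1 higher in LT-HSC. With the floor at the 25th percentile 2 were higher in granulocytes and 8 higher in LT-HSC. With the median over probe sets they were 5 lower and 0 higher in granulocytes, 1 lower and 3 higher in HPC, and 5 lower in LT-HSC. With the first probe set by name 0 were higher in granulocytes, 2 higher in HPC and 5 lower in LT-HSC, and the difference of Fancm in HPC turned to 0.78. At 4-fold they were 4 lower and 0 higher in granulocytes, 0 lower and 2 higher in HPC, and 2 lower and 1 higher in LT-HSC. Against the mean of the other arrays 4 were higher in granulocytes, with 6 lower and 8 higher in HPC. Scaling to the hybridization controls left 0 higher in granulocytes and 16 lower. The counts over all genes moved too, to 835 higher and 3210 lower, from 1619 and 2319 in the main analysis. Scaling to the 75th percentile or quantile normalization left 1 lower in HPC. Of all genes 386 and 425 were then lower in HPC, against 490 in the main analysis. For the other floors and probe set rules and the mean of the other arrays, no count over all genes is given. Without the LT-HSC array 2 were higher and 15 lower in granulocytes, and 7 were lower and 7 higher in HPC. The cause of these changes was not tested. No paired analysis was possible because each cell type has 1 array. Signals near the floor of 120.1 limit the low side of many comparisons, which are then bounds.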

Other observations

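Several repair genes outside the families differed between the stem cell populations. Atm, the kinase that responds to broken DNA ends, had 211 in LT-HSC, against 1038 in ST-HSC, a difference of -2.30 log2 units, and its signals were 259.9 in granulocytes and 888 in HPC. Usp1, which removes ubiquitin from Fancd2, had 646 in LT-HSC, against 1793 in ST-HSC (2.78-fold lower), and Brip1, a helicase that binds Brca1, had 177 in LT-HSC, against 490.5 in ST-HSC (2.77-fold lower). Lig1, the ligase of replication, had 1616 in LT-HSC, against 4311 in ST-HSC, and Exo1, which degrades the strand that carries a mismatch, had 773 in LT-HSC, against 1873 in ST-HSC. On the other side, Atrip, the partner of the kinase Atr, had 406 in LT-HSC and was under the floor in ST-HSC (97.2), and Chek2, a kinase activated by Atm, had 2021 in LT-HSC, against 916 in ST-HSC. These genes were picked after their values were seen, from lists of which 6 of 71 were lower and 8 higher in LT-HSC. Of all genes 5.41% were lower and 7.28% were higher.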
